A study of Homo sapiens with 4 samples.

Results

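The guide strands of the miR-30 family were examined in HepG2, an established human hepatoma cell line, after treatment with berberine, a plant alkaloid. The members were the 5 miRNAs that the arrays list as hsa-miR-30a, hsa-miR-30b, hsa-miR-30c, hsa-miR-30d and hsa-miR-30e, chosen by name from 851 human miRNAs. Cultures were given either 40 µM berberine chloride or, as controls, the solvent alone (0.08% DMSO), for 2 h or for 4 h before RNA extraction. A single-dye Agilent human miRNA microarray read 1 RNA sample for each of the 4 conditions, all arrays being on 1 slide, so no condition had a replicate and the spread between cultures is unknown. Each error below is the measurement error that the scanner software, Feature Extraction, gives for an array, or is propagated from it. The exception is the SE of the limma fit, which comes from the spread between arrays. As RNA of whole cultures was read, a miRNA held by fewer of the cells and less of it in each cell cannot be told apart.

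A miRNA is cut from a hairpin as a duplex, of which the guide strand is loaded onto an Argonaute protein and the passenger strand, marked by an asterisk in the older names used here, is mostly degraded. The guide pairs with its target mRNAs chiefly through its seed, bases 2 to 8. The members of the miR-30 family share a seed and differ towards the 3′ end, so they can bind many of the same mRNAs. Known targets of the family include SNAI1, a transcription factor that drives the epithelial to mesenchymal transition, and BECN1, an autophagy gene known as a target of miR-30a.

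Of the 5 members, 3 matched an entry of the RefSeq mature miRNA table (GRCh38.p14). Their guide strands are shown, with the seed in capitals, because miR-30a and miR-30e are almost identical but were measured very differently. Also shown are the passenger strands of the hairpins of miR-30a and miR-30e, which likewise differed in detection.
hsa-miR-30a: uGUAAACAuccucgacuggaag
hsa-miR-30e: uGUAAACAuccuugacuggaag
hsa-miR-30c: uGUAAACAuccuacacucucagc
hsa-miR-30a*: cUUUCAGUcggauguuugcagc
hsa-miR-30e*: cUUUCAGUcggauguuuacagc
Between the guides of miR-30a and miR-30e a single base differed, C13U, with positions counted from the 5′ end of miR-30a. The miR-30c guide differed from each of them at 5 of 22 positions, all from position 13 to position 20. Of 2370 mature names in the table, which has no entry for miR-30b or miR-30d, these 3 guides alone carried the seed GUAAACA (0.127%). The passenger strands of miR-30a and miR-30e differed by G18A, counted in the same way.
On GRCh38.p14 the guide of miR-30e lies at chr1:40754371-40754392 on the plus strand. That of miR-30c is encoded by a pair of hairpins, at chr1:40757300-40757322 on the plus strand (MIR30C1) and at chr6:71377003-71377025 on the minus strand (MIR30C2). Its array signal therefore cannot be assigned to either hairpin. The guide of miR-30a lies at chr6:71403595-71403616 on the minus strand. In the RefSeq gene table, MIR30E and MIR30C1 lie within the interval of NFYC, a protein-coding gene for a subunit of the transcription factor NF-Y. No gene listed in that table spans MIR30A or MIR30C2, and genes missing from it were not looked for.

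The 4 arrays differed in brightness. The 75th percentile of total signal among 197 human miRNAs that every array detected was 243 and 169 for control and berberine at 2 h, and 225 and 297 at 4 h. Human miRNAs detected numbered 199 to 242 per array, and no spot was saturated. All 4 hepatocyte markers tested were detected on every array, with miR-122, the defining hepatocyte miRNA, at total signals of 22.4 to 39.9. Of 12 markers of blood, muscle, neural, endothelial and stromal cells, 8 were detected on no array and 3 (miR-142-3p, miR-451 and miR-143) on the berberine array at 4 h alone. The remaining marker, miR-145, was detected on all arrays. Before scaling, the summed signal of the detected markers among these 12 was 57.7 with berberine at 4 h. On the other 3 arrays it was 19.7 to 30.8, all of it from miR-145. With berberine at 4 h miR-145 gave 42.3, while miR-142-3p, miR-451 and miR-143 gave 6.13, 5.31 and 3.95. The lowest detected signal on that array was 1.98. The summed signal of the 4 hepatocyte markers was likewise highest there, at 4849, against 2594 to 3913 on the other 3 arrays. Little of it came from miR-122, which gave 39.9 there, while miR-148a, miR-192 and miR-194 gave 2313, 1565 and 931. The part of other cell types in the results was not tested.

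Of the 5 members, 4 (miR-30b, miR-30c, miR-30d and miR-30e) were detected on all 4 arrays, against 23.1% of all human miRNAs. By contrast, miR-30a was detected on the berberine array at 4 h alone. Its 2 probes have 8 spots each on an array. The brighter probe gave a signal of 3.36 ± 1.17 (error of Feature Extraction) with solvent and 1.76 ± 1.59 with berberine at 2 h. At 4 h it gave 3.46 ± 1.52 with solvent and 4.24 ± 1.26 with berberine. A probe counts as detected above 3 times its error, and the signals of this probe were 2.87, 1.11, 2.28 and 3.37 errors, in the same order. Of the 4 values 3 thus lay below the detection limit and 1 just above it. The dimmer probe lay between -0.45 and 0.24 on every array, within its error of 0.
No fold change is given for miR-30a at 4 h, since it was not detected on the control array. After scaling for array brightness, its signal with berberine was 0.929 times that of the same probe on the control array. That control value lay below the detection limit, so the ratio is no bound on a fold change. Detection with berberine but not with solvent at 4 h was shared by 2.82% of all human miRNAs, and the opposite by 0.94%. The berberine array at 4 h was also the brightest of the 4, and the 3 markers of blood and stromal cells named above were detected on it alone. The part of these in the detection of miR-30a was not tested. The probes of miR-30a stayed around or below their detection limit on arrays where every probe of miR-30e was above its own. Among the guides whose sequences are shown, miR-30e is the nearest to miR-30a, while miR-30b and miR-30d were not compared in sequence. Whether miR-30a contributed to the signal of the miR-30e probes was not tested.

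**Figure D1:**
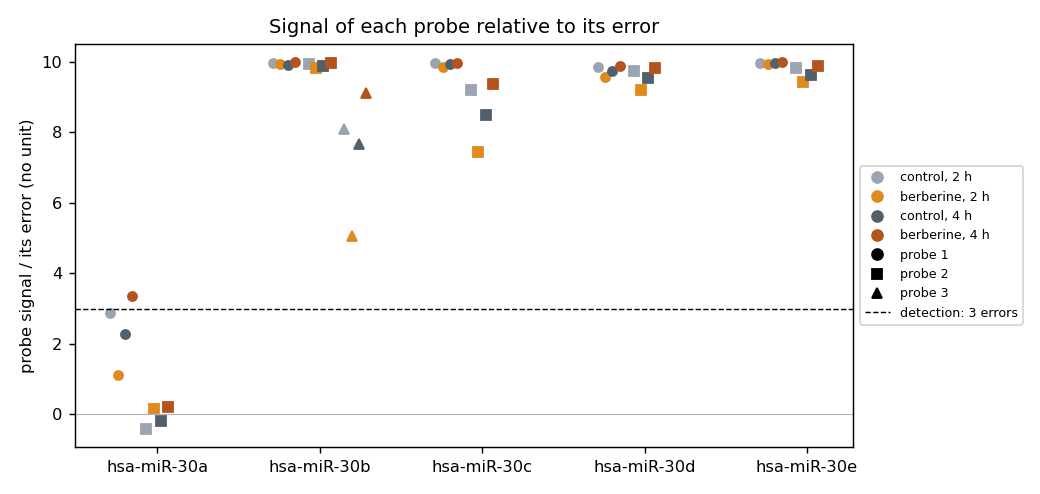
Signal of each probe divided by its own error (no unit) for the 5 miR-30 guide strands, with colour for the array and marker shape for the probe. The dashed line marks the detection limit of 3 errors. A single miR-30a value, 3.37 for berberine at 4 h, lies above the line, and all 36 probe values of the other 4 members lie above it.

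The 4 detected members were measured well above the detection limit. On the control array at 2 h the total signal of miR-30b, a guide known to repress the glycosyltransferase GALNT7 in melanoma, was 277 ± 19.95. With berberine it was 175 ± 12.7 at the same time. At 4 h it was 233 ± 16.5 with solvent and 380 ± 26.9 with berberine. Its lowest value was thus on the dimmest array and its highest on the brightest.
The total signal of miR-30c, known to repress the connective tissue growth factor CTGF, was 181 ± 15.8 with solvent and 120.03 ± 10.66 with berberine at 2 h. At 4 h it was 164 ± 14.3 with solvent and 239.5 ± 20.9 with berberine. The order of the arrays was that of miR-30b.
The total signal of miR-30d, known to repress the G protein subunit GNAI2 in liver cancer cells, was 117 ± 8.53 with solvent and 89.3 ± 6.78 with berberine at 2 h. It was 111 ± 8.18 with solvent and 146 ± 10.5 with berberine at 4 h. Like miR-30b and miR-30c, miR-30d was thus lower with berberine at 2 h and higher at 4 h before scaling.
The total signal of miR-30e, known to repress the SUMO-conjugating enzyme UBC9, was 292 ± 23.7 with solvent and 212 ± 17.4 with berberine at 2 h. It was 241 ± 19.6 with solvent and 351 ± 28.4 with berberine at 4 h. All 4 members had the same order of arrays, berberine at 2 h lowest and berberine at 4 h highest, which is also the order of array brightness. The 2 control arrays were neighbours in this order, and the part of array brightness in these unscaled values was not tested.

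**Figure D2:**
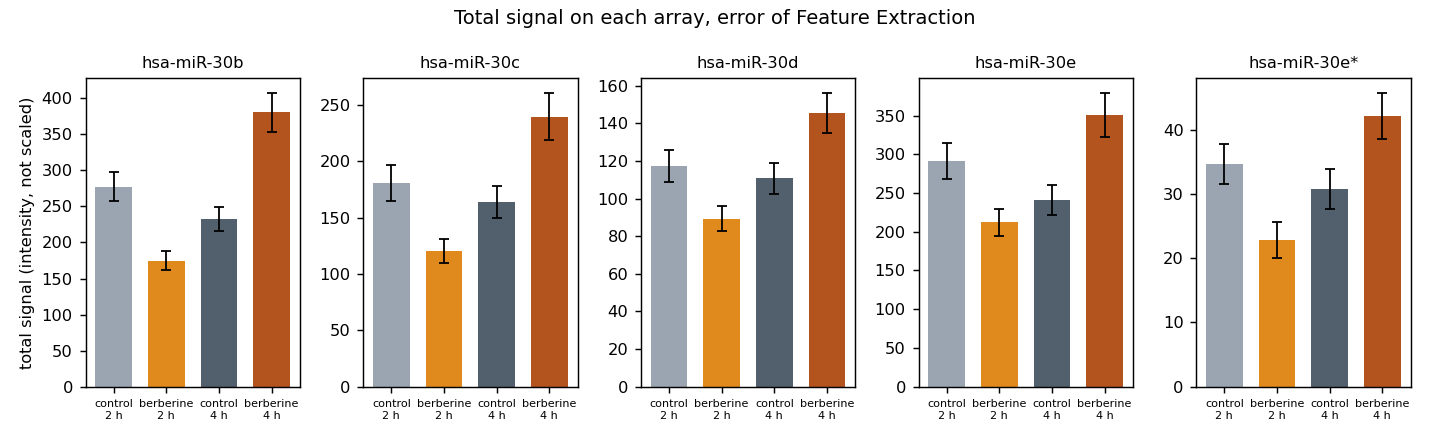
Total signal (intensity, not scaled between arrays) of the 4 detected guide strands and of the passenger strand hsa-miR-30e* on each array. Bars are the single value of an array and error bars the error of Feature Extraction. In every panel the berberine array is the lowest at 2 h and the highest at 4 h.

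To compare conditions, the log2 of the array's 75th percentile was subtracted from the log2 of each signal. At 2 h none of the 4 members was more than 2-fold from the control, the threshold of the study, against 1.02% of 197 miRNAs. None was more than 1.5-fold from it, against 4.57%. The ratio of berberine over control was 0.908-fold for miR-30b (log2 ratio -0.14, SE 0.15) and 0.955-fold for miR-30c (log2 ratio -0.07, SE 0.18). It was 1.10-fold for miR-30d (log2 ratio 0.13, SE 0.15) and 1.05-fold for miR-30e (log2 ratio 0.07, SE 0.17). The 95% measurement range, which covers the measurement error only, included no change for all 4, whereas it did not for 9.14% of all miRNAs. Over the 4 members these ranges spanned 0.743-fold, for miR-30b, to 1.35-fold, for miR-30d. The median log2 ratio of the 4 members was -0.00038, beside -0.02 for all 197 miRNAs, whose middle 95% ran from -0.61 to 0.49.

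At 4 h again none of the 4 members was more than 2-fold from the control, against 0.917% of 218 miRNAs, and none was more than 1.5-fold from it, against 9.63%. The ratio was 1.24-fold for miR-30b (log2 ratio 0.31, SE 0.14), with a 95% measurement range of 1.02-fold to 1.51-fold. This was the single member whose range left out no change, against 11.5% of all miRNAs. The other ratios were 1.11-fold for miR-30c (log2 ratio 0.15, SE 0.18), 0.997-fold for miR-30d (log2 ratio -0.0042, SE 0.15) and 1.10-fold for miR-30e (log2 ratio 0.14, SE 0.17). Their 95% measurement ranges spanned 0.814-fold, for miR-30d, to 1.42-fold, for miR-30c.
The ratio of miR-30b at 4 h stood at the percentile 84.6 of all miRNAs. Its range depended on the scaling, since with scaling to the median its log2 ratio was 0.14 and the range included no change. The range also included no change when the 75th percentile was taken without the miR-30 strands, at a log2 ratio of 0.27. The median log2 ratio of the 4 members was 0.15, beside 0.11 for all 218 miRNAs, whose middle 95% ran from -0.62 to 0.72. Without scaling the ratios of the 4 members were 0.631-fold to 0.762-fold at 2 h and 1.31-fold to 1.63-fold at 4 h, and the median log2 ratio of all miRNAs was then -0.55 at 2 h and 0.51 at 4 h.

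**Figure D3:**
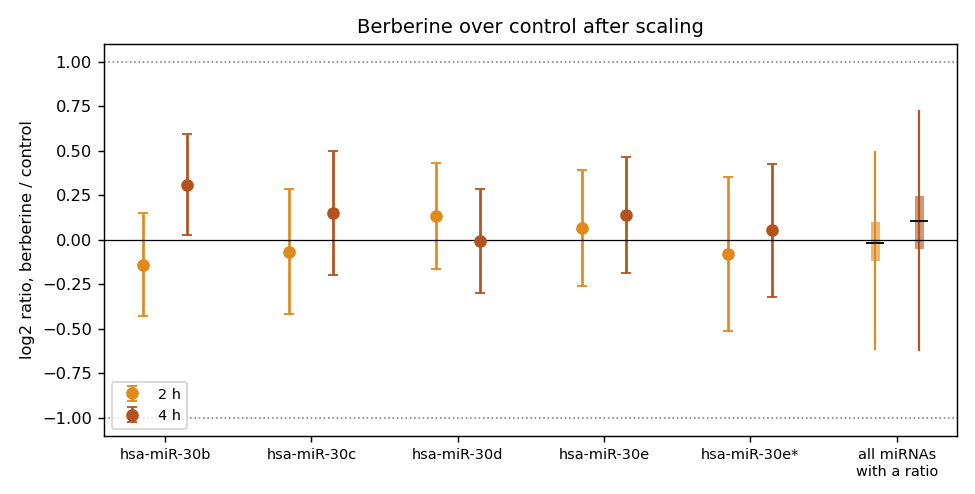
Log2 ratio of berberine over control after scaling, at 2 h and 4 h, with error bars of the 95% measurement range. At the right, the thin line spans the middle 95% of all miRNAs with a ratio, the thick line the middle 50%, and the black mark the median, and dotted lines mark 2-fold. The one error bar that does not reach 0 is that of hsa-miR-30b at 4 h, at 0.31.

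The arrays of both times were then put into 1 limma fit with terms for treatment and time. It left 1 residual degree of freedom and took the 2 times as the only replication. limma draws the variance of each miRNA towards a prior shared by all 197, which here carried 54.2 degrees of freedom. The SEs and p-values of the fit therefore rest mostly on the spread of all miRNAs and hardly on that of a member. No member passed an adjusted p of 0.05 (limma, Benjamini-Hochberg over 197 miRNAs), against 0.508% of all miRNAs, and none had an unadjusted p under 0.05, against 4.57%. The log2 ratio over both times was 0.09 (SE 0.21) for miR-30b, 0.04 (SE 0.21) for miR-30c, 0.06 (SE 0.21) for miR-30d and 0.10 (SE 0.21) for miR-30e, each with an adjusted p of 0.997 from limma. These values do not show that the levels were equal, since a change within the measurement ranges given above could not be seen with 1 array per condition. Those ranges leave out the unknown spread between cultures, so a larger change could have been missed too.

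The members could also be compared with each other on the same array, where the scaling cancels. Among the 6 pairs of detected members, no pair had log2 ratios whose difference left its 95% measurement range clear of 0, at 2 h or at 4 h. The pair farthest apart was miR-30b and miR-30d, whose log2 ratios differed (miR-30b minus miR-30d) by -0.27 (SE 0.21) at 2 h and by 0.31 (SE 0.21) at 4 h. Between the times this difference moved by 0.59 (SE 0.30), which is 1.98 SE and the largest of 6 such moves. The other 5 lay between -0.21 and 0.37, and their 95% ranges included 0. With quantile normalization, which does not cancel in this way, the move of this pair was 0.42.
Relative to the median of all miRNAs, the log2 ratio of miR-30b differed by -0.12 at 2 h and by 0.20 at 4 h. For miR-30d the same differences were 0.15 and -0.11. With normexp background correction (offset 50) they were -0.31 and 0.38 for miR-30b, and -0.03 and 0.06 for miR-30d. The median of all miRNAs was then 0.19 at 2 h and -0.12 at 4 h. The log2 ratio of miR-30b itself was no larger than in the main analysis, at -0.12 and 0.26. From the highest ratio to the lowest, the order at 4 h was miR-30b, miR-30c, miR-30e and miR-30d, the reverse of that at 2 h, but neighbours in either order differed by less than 1 SE.

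Each member was read by more than 1 probe, and the probes were compared. At 2 h the 3 probes of miR-30b gave log2 ratios of -0.13 (SE 0.20), -0.14 (SE 0.21) and -0.22 (SE 0.34), from the brightest to the dimmest. At 4 h they gave 0.33 (SE 0.21), 0.32 (SE 0.21) and 0.05 (SE 0.25). The bright pair of probes thus lay close together, and every single probe's 95% range included 0.
For miR-30c the probes gave -0.07 and -0.07 at 2 h and 0.16 and 0.11 at 4 h. For miR-30d they gave 0.15 and 0.11 at 2 h and -0.02 and 0.02 at 4 h. For miR-30e they gave 0.08 and 0.01 at 2 h and 0.15 and 0.13 at 4 h. The probes of each of these 3 members differed by less than the measurement error. The spots of a probe varied on an array with a coefficient of variation of 0.882% to 35.5% (median 4.37%) over the 36 probe values of the 4 members, while no probe signal was more than 9.99 times the error that Feature Extraction gives.

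**Figure D4:**
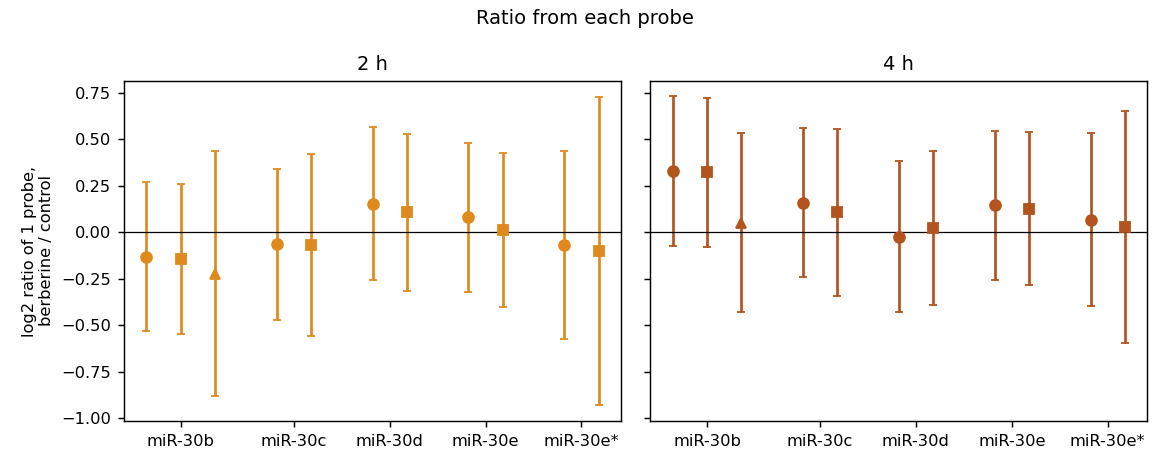
Log2 ratio of berberine over control from each probe after scaling, at 2 h (left) and 4 h (right), with error bars of the 95% measurement range. Markers run from the brightest probe (circle) to the dimmest. The first 2 probes of miR-30b lie at 0.33 and 0.32 at 4 h, and every error bar reaches 0.

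The arrays of one treatment were also compared over time. Between the control arrays, the log2 ratio of 4 h over 2 h was -0.14 (SE 0.15) for miR-30b, -0.03 (SE 0.18) for miR-30c, 0.03 (SE 0.15) for miR-30d and -0.16 (SE 0.17) for miR-30e. The 95% range included 0 for all 4, whereas it did not for 6.85% of 219 miRNAs, and none was more than 2-fold apart, against 2.28%. Between the berberine arrays, miR-30b was at 0.31 (SE 0.15), the single member of the 4 whose range left out 0, against 19.8% of 197 miRNAs. The other members were at 0.18 (SE 0.18) for miR-30c, -0.11 (SE 0.15) for miR-30d and -0.09 (SE 0.17) for miR-30e. None of the 4 was more than 2-fold apart, against 3.05%. These contrasts share arrays with those of berberine over control and are not independent of them.

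The passenger strands of the 6 miR-30 hairpins were mostly undetected. A single one, miR-30e*, known to repress the NF-κB inhibitor IκBα in glioma, was detected on all 4 arrays. Its total signal was 34.7 ± 3.08 with solvent and 22.8 ± 2.83 with berberine at 2 h. At 4 h it was 30.8 ± 3.11 with solvent and 42.1 ± 3.58 with berberine. The order of the arrays was that of the guides. The scaled ratio was 0.946-fold (log2 ratio -0.08, SE 0.22) for 2 h and 1.04-fold (log2 ratio 0.05, SE 0.19) for 4 h.
The log2 ratio of the guide miR-30e minus that of its own passenger strand was 0.15 (SE 0.28) at 2 h and 0.09 (SE 0.25) at 4 h, within the error at both times. The 95% measurement ranges of this difference ran from -0.40 to 0.69 and from -0.41 to 0.58, so a shift between the arms inside them could not be seen. The passenger strand miR-30d* was detected on the control array at 4 h alone, with a total signal of 5.25 ± 1.13 from 1 of its 4 probes. The spots of that probe varied there with a coefficient of variation of 148%. The strands miR-30a*, miR-30b*, miR-30c-1* and miR-30c-2* were detected on no array. Thus both arms of the miR-30e hairpin were detected on all arrays, while miR-30a was detected on 1 array and miR-30a* on none.

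The miRNAs whose profile over the 4 arrays was nearest to the mean profile of the 4 detected members were miR-362-5p, miR-215, miR-25, miR-29a and miR-92a. Likeness was the root mean square difference between profiles of log2 scaled signal, each centred on its own mean over 4 arrays. It was 0.011 for miR-362-5p, 0.013 for miR-215 and 0.016 to 0.017 for the other 3, beside a median of 0.090 over the miRNAs that are no member. The members themselves lay 0.044 (miR-30c) to 0.086 (miR-30b) from their own mean. All of these differences are below the measurement error of a single member.

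**Figure D5:**
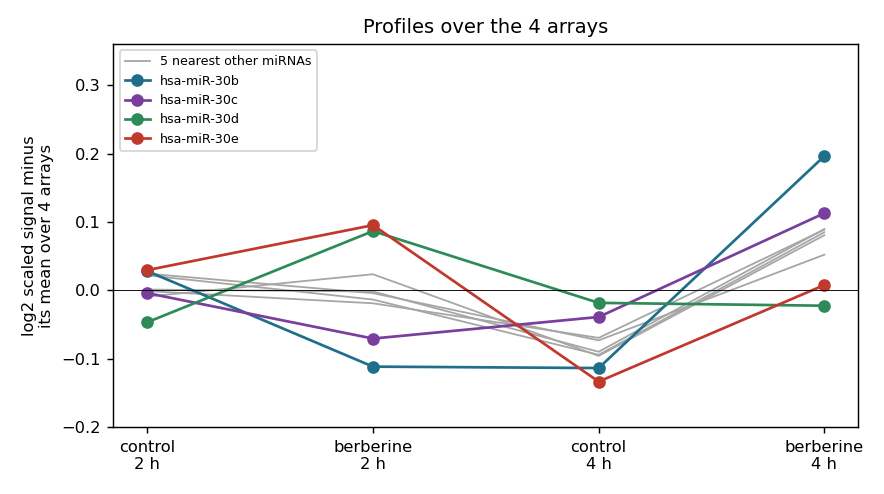
Log2 scaled signal of each detected guide strand on the 4 arrays, minus its own mean over the arrays. Grey lines are the 5 other miRNAs nearest to the members' mean profile. Of the members, hsa-miR-30b reaches the highest value, 0.20 for berberine at 4 h, and hsa-miR-30e the lowest, -0.13 for control at 4 h.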

How the data were processed

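Total RNA of HepG2 cells was hybridised to 4 Agilent human miRNA arrays, 1 per condition. The authors deposited Feature Extraction 10.7.3.1 output, in which the intensity of a spot, probe or miRNA is background-subtracted and not scaled between arrays. The total signal equalled the sum of the probes above 3 errors (tolerance 0.1%) for all 902 detected values, and an undetected miRNA is written as 0.1. A second deposited table holds the authors' ratios of berberine over control and was not used.

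From each log2 signal the array's own 75th percentile was subtracted, taken over 197 human miRNAs found on every array. A ratio was computed where both arrays detected the miRNA. SEs were propagated from the deposited errors, and a 95% range is 1.96 SE. A single time was not tested. limma 3.58.1 in R 4.3.3 was fitted over both times. On simulated data for this comparison (197 miRNAs, 20 changed, 20 runs), 79.5% of log2 changes of 1 were recovered, with 0.7 wrong calls per run, and 100% of those of 2, with 0.8. The simulated noise was normal with the same spread for every miRNA, there was no effect of time, and a change was equal at both times. These shares therefore do not show how many real changes would be found in the measured data. Python 3.11.15 was used for the rest.

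Named were the 5 members, the 6 passenger strands of their hairpins and the 5 miRNAs with the nearest profile, beside fixed cell type markers. Members, lists and tests were chosen with earlier results of these data known. In the normexp and mean-of-probes alternatives, spots of a probe were averaged first. The number of arrays limits the precision.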

Additional observations from a re-analysis of the deposited data

Results flagged for a closer look

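For 3 of the 4 detected members and for the passenger strand miR-30e*, berberine and solvent were ordered one way at 2 h and the other way at 4 h. This difference was not tested, for want of replicate arrays, and the log2 values that follow, 4 h minus 2 h, carry measurement error only. The difference was 0.45 (SE 0.21) for miR-30b, the only one whose 95% measurement range (0.04 to 0.85) left out 0. It was 0.22 (SE 0.25) for miR-30c, -0.14 (SE 0.21) for miR-30d and 0.13 (SE 0.29) for miR-30e*. The brightness of the arrays also differed in opposite ways at the 2 times, with a 75th percentile that was lower with berberine at 2 h (169 against 243) and higher at 4 h (297 against 225). Its part in these differences was not tested. Which strands changed order depended on the processing. With scaling to the median, miR-30c (-0.080 at 2 h, -0.020 at 4 h) and miR-30e* (-0.094, -0.12) kept 1 sign, whereas miR-30e (0.052, -0.031) did not. Without scaling all 4 members were below 0 at 2 h and above 0 at 4 h. With normexp miR-30e* turned to 0.24 at 2 h and -0.15 at 4 h, where the median of all miRNAs was 0.19 and -0.12.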

How the results depend on the processing

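By replicate number, no paired analysis was possible because every group holds number 1 alone. The term for time in the limma fit already set berberine against the control of its own time. Under 15 alternatives of the limma fit, 0 members passed an adjusted p of 0.05, and the adjusted p of a member ran from 0.444 to 1. No member was more than 2-fold from the control under any alternative at 4 h, nor at 2 h with 1 exception. When the 75th percentile was taken over every human miRNA, it fell, for berberine at 2 h, on the value written for undetected miRNAs, so that 4 members passed 2-fold there, as did all 197 miRNAs. The median log2 ratio of the members was then 5.11 at 2 h and -0.26 at 4 h, and that of miR-30b at 4 h was -0.096. Without scaling the members' median was -0.53 (2 h) and 0.55 (4 h). At 4 h it was -0.025 with scaling to the median and -0.012 with quantile normalization.

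The ratio of miR-30b at 4 h was positive under 7 of 8 alternatives. The SE of the main analysis was used for each alternative, since none was computed anew. With it, the 95% range left out 0 under 2, no scaling and the mean of all probes. The ratio was above the median of all miRNAs under all 8. In limma, 10 of 60 log2 ratios of members changed sign. With scaling to the median they were -0.0075 for miR-30b, -0.0499 for miR-30c and -0.028 for miR-30d. With quantile normalization they were -0.028 for miR-30c, -0.042 for miR-30d and -0.076 for miR-30e. For miR-30c it was also -0.020 without scaling and -0.0079 with the brightest probe. Leaving out each array in turn, without a term for time, gave -0.069 to 0.24 for miR-30b, -0.049 to 0.13 for miR-30c, 0.0099 to 0.12 for miR-30d and 0.022 to 0.18 for miR-30e. The negative ends were without the berberine array at 4 h, and an arm left with 1 array is assumed to vary like the other. The cause of these changes was not tested. Since spots come with a median but no mean signal, normexp used the median.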
